A study of Mus musculus with 9 samples.

Results

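Anti-PD1 treatment was compared with control IgG in CD45-positive cells sorted from mouse melanomas, with 6 libraries, 3 of each group, out of the 9 in the series. Libraries were placed in a group by the treatment and replicate number in their labels, and no measured value was used. The tumours were YUMM 2.1 melanomas, a mouse melanoma cell line, grown under the skin of C57BL/6J mice that have a working immune system. Mice received control IgG, an antibody against PD1 or an antibody against B7-H3 once the tumours measured 20 to 50 mm3, and all 9 libraries share the tumour line, the mouse strain and the CD45 sort. The design also names the 2 antibodies given together, which was not analysed here. Antibody clones and doses, the days between treatment and sort, and the age and sex of the mice were not given in the sources used here. Nothing in the labels says that replicates of a group came from separate animals, so the p-values below measure only the spread between these libraries.

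PD1, encoded by Pdcd1, is an inhibitory receptor of activated and exhausted T cells, and its ligands PD-L1 and PD-L2 are carried by myeloid cells and, in the case of PD-L1, by many tumour cells. Antibodies that block PD1 release T cells from this brake and are used to treat melanoma. CD45, encoded by Ptprc, is the surface phosphatase carried by leukocytes, so a CD45 sort takes lymphocytes, macrophages, monocytes, dendritic cells and neutrophils together and should leave out tumour, stromal and red blood cells.

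Library totals ran from 14487012 to 20477257 estimated counts in the IgG group and from 24257522 to 30119530 in the anti-PD1 group, which puts 3 counts, the floor used here, at 0.0999 to 0.208 CPM (counts scaled by library size) in these 6. IgG control 2 and anti-PD1 3 stood apart from the rest, with 1896 and 1248 of the 13178 tested genes at 0 counts, against 224 to 822 in each of the other 7. Values below are CPM for libraries 1, 2 and 3 in that order, and changes are log2 fold changes, anti-PD1 minus IgG, ± SE. A gene is said to have risen or fallen where edgeR's quasi-likelihood test gave it a Benjamini-Hochberg adjusted p under 0.05 over all 13178 genes. Calls that ended when single libraries were left out are listed, and mostly not repeated where a gene is named again. Where several genes are listed together, the libraries in brackets are pooled over them, and each ended the call of at least 1 of these genes, not of all. Of 836 entries in the gene lists, 54 were below the filter on low counts or not in the files. A gene can pass that filter through the group in which it is high, so counts and medians describe the tested members only.

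The antibody's target and the sorted surface protein were examined first. Ptprc (chromosome 1, 138062861 to 138175708, GRCm38) was read at 2911, 2167 and 1870 CPM in the IgG libraries and at 1903, 1820 and 2409 with anti-PD1. Pdcd1 (chromosome 1, 94038305 to 94052553) lay at 173, 234 and 103 CPM against 116, 170.4 and 123. The groups overlapped for both genes, at edgeR adjusted p = 0.841 and 0.837, and an antibody leaves the gene of its target in place, so Pdcd1 does not check the labels. Of the ligands, Pdcd1lg2, which encodes PD-L2, was at 3.96, 3.9 and 3.89 CPM in the IgG libraries and at 14.5, 13 and 13.1 with anti-PD1, without overlap (edgeR adjusted p = 0.0441, and up to 0.208 with single libraries left out). Cd274, which encodes PD-L1, did not overlap either, at 23.6, 9.09 and 19.5 against 51.4, 46.4 and 73.3, but missed the threshold (edgeR adjusted p = 0.0592). Cd276, the gene of B7-H3, was listed at 0 in IgG control 2 and 3 and in anti-PD1 3 and at 0 to 1.03 CPM over the anti-PD1 libraries, with overlap. Sirpa, the phagocyte receptor for CD47, rose from 6.26, 3.4 and 8.04 CPM to 67.6, 34.5 and 24.7, and Cd80, a ligand of CD28 and CTLA4, from 3.81, 6.37 and 3.58 to 17.1, 15.9 and 22.8 (edgeR adjusted p = 0.00749 and 0.0432). Of 25 tested genes of PD1, its ligands and other checkpoints, these 3 (Pdcd1lg2, Sirpa and Cd80) passed the test. Leaving out single libraries ended the call of Cd80, at edgeR adjusted p up to 0.157 (without IgG control 1 or 3, or anti-PD1 1, 2 or 3, or anti-B7-H3 2 or 3).

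With anti-PD1, 227 of 13178 tested genes were higher and 2 were lower. That is 1.74% in either direction, 1.72% higher and 0.0152% lower. The genes that rose included chemokines that draw neutrophils, interleukin 1, neutrophil and macrophage genes, MHC class II and the heavy chain of IgM, whereas no T cell, NK cell or interferon list had more than 1 gene past the test. The test called few falls although 47.2% of all changes were positive and the median over all tested genes was -0.04. At an unadjusted p under 0.05 there were 945 higher and 492 lower genes. For each of the 227 higher genes, every anti-PD1 library lay above every IgG library. Over all tested genes this arrangement was met by 1316, or 9.99%, and the opposite one by 859, or 6.52%. Counts of list members without overlap, given below, are to be read beside these shares.

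CXC chemokines with a glutamate-leucine-arginine motif, such as Cxcl1, Cxcl2 and Cxcl3, draw neutrophils through the receptor Cxcr2. Interleukin 1 alpha and beta are alarm cytokines of myeloid cells that act through the receptor Il1r1, with Il1rn as a soluble antagonist and Il1r2 as a decoy receptor. The transcription factor NF-kB drives many of these genes and also its own inhibitors, of which Nfkbia is the best known. Of the 4 genes of these lists that rose with the smallest p, the stretch from 250 to 31 bases before the RefSeq start is given here, on the gene's strand, because several members of the 3 lists rose. Capitals mark matches to the NF-kB motif (GGGA, any 4 bases, then CC) and to the AP-1 motif TGANTCA, both searched on either strand. The letters TATAAA, searched on the gene's strand, were in none of these 4 windows.
Cxcl2, chr5:90903649-90903868, plus strand, GRCm38: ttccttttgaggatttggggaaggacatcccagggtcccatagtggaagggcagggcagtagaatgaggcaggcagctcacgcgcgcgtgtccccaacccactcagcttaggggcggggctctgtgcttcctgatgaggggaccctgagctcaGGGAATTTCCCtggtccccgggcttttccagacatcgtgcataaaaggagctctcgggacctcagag
Il1rn, chr2:24336610-24336829, plus strand, GRCm38: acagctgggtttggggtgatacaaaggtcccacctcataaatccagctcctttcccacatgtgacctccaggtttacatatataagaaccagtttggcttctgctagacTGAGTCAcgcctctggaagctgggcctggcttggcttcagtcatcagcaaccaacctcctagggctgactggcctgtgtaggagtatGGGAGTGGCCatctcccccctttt
Ier3, chr17:35821463-35821682, plus strand, GRCm38: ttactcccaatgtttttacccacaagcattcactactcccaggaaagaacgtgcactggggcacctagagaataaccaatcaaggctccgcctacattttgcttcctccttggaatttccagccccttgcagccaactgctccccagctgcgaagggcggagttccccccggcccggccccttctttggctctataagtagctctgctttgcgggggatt
Ccrl2, chr9:111057549-111057768, minus strand, GRCm38: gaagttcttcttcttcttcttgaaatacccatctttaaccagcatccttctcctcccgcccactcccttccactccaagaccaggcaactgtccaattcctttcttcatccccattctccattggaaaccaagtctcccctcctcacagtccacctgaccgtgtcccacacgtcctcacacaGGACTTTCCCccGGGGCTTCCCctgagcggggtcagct
The Cxcl2 stretch held 2 NF-kB matches that overlap, 1 on each strand and starting 97 and 96 bases before the start. Il1rn had an NF-kB match 54 bases and an AP-1 match 141 bases before the start, Ccrl2 had 2 NF-kB matches on the opposite strand, starting 68 and 56 bases before the start, and Ier3 had none of these letters in this window. An NF-kB match lay within 250 bases upstream in 17.6% of 32851 RefSeq windows of this length and in 22.3% of the 10096 windows of tested genes. It lay in 26.4% of 178 windows of genes called higher, in 43.8% of 48 windows of tested members of the 3 lists, and in 7 of 13 windows of their members called higher. Those 7 are Cxcl1, Cxcl2, Cxcl3, Il1rn, Ccrl2, Nfkbia and Rel. For AP-1 the shares were 6.7% of all windows, 4.2% of tested genes, 5.1% of genes called higher and 14.6% of the 3 lists, and for TATAAA 7.6%, 4.1%, 10.7% and 16.7%. A match is a run of letters and not a measured site.

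Cxcl2 (chromosome 5, 90903871 to 90905938) had the smallest p of all genes. It was read at 7.96, 4.58 and 10.6 CPM in the IgG libraries and at 169.6, 175 and 212 with anti-PD1, a change of 4.58 ± 0.31 (edgeR adjusted p = 0.000234). The lowest anti-PD1 library lay far above the highest control. Cxcl3 went from 1.1, 2.47 and 0.881 to 32.8, 28.8 and 36.6 CPM, a change of 4.46 ± 0.77. Cxcl1 had no count in any IgG library and 5.39, 4.62 and 4.59 CPM with anti-PD1, which is at least 90.4-fold higher against a floor of 3 counts over the IgG group. Cxcl16, a membrane-bound ligand of Cxcr6, rose from 7.61, 7.17 and 8.19 to 37.6, 54 and 32 CPM (edgeR adjusted p = 0.0038). These 4 of 8 tested CXC chemokines rose, at a median change of 4.13, beside 1.72% and -0.04 for all tested genes. The other 5 of 13 members lay below the filter on low counts, and Cxcl1, Cxcl9 and Cxcl14 passed it through the antibody groups, so this count and median are partly set by the filter. The interferon-induced Cxcl10 lay at 5.86, 9.03 and 7.15 CPM against 13.9, 9.83 and 8.43, with an overlap of the groups only between IgG control 2 and anti-PD1 3. Cxcl9 was listed at 0 in 2 IgG libraries and at 1.24, 6.8 and 1.42 with anti-PD1, and it did not pass (edgeR adjusted p = 0.0584). The call was lost without 1 or more of the libraries for Cxcl3 and Cxcl1, with edgeR adjusted p up to 0.0684 and 0.112, in that order (without IgG control 1 or 3, or anti-PD1 1, 2 or 3, or anti-B7-H3 2).

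Both interleukin 1 cytokines rose. Il1b (chromosome 2, 129364570 to 129371139) was read at 35.3, 6.99 and 48.3 CPM with IgG and at 976, 823 and 1138 with anti-PD1, a change of 5.02 ± 0.64 (edgeR adjusted p = 0.00531). Il1a went from 0.601, 4.58 and 0.674 to 54.3, 63.1 and 80.3 CPM, a change of 5.09 ± 0.75. IgG control 2 had the lowest Il1b and the highest Il1a among the controls. The antagonist Il1rn rose at the same time, from 6.06, 3.28 and 5.44 to 63.3, 49.1 and 79 CPM, or by 3.69 ± 0.33 (edgeR adjusted p = 0.000465). The decoy receptor Il1r2 rose by less, from 225, 190.2 and 141 to 534, 481 and 484 CPM. These were the 4 of 20 tested genes of the interleukin 1 family and inflammasome list that passed. The list's median change was 0.64, or 0.37 without IgG control 1, 0.34 without IgG control 2 and 0.29 without anti-PD1 1. The inflammasome sensor Nlrp3, at 2.45, 3.22 and 0 CPM against 29.2, 20.1 and 31.8, did not overlap between the groups but missed the threshold (edgeR adjusted p = 0.13). The fits that left out 1 library did not all keep the call of Il1r2, where the edgeR adjusted p reached 0.114 (without IgG control 2 or 3, or anti-PD1 1, 2 or 3, or anti-B7-H3 2).

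Of 27 tested NF-kB targets and feedback genes, 7 rose and 18 had all anti-PD1 libraries above all controls, at a median change of 1.14. Ier3, an early-response survival gene, went from 17.5, 11.7 and 17.7 to 127, 132 and 109 CPM, and Ccrl2, a chemerin-binding receptor, from 24.3, 53.7 and 25.8 to 213, 171 and 216. Tnfaip2 rose from 6.61, 1.55 and 1.09 to 64.1, 46.8 and 76.1 CPM. Gadd45b, a stress-response gene, rose by 1.57 ± 0.21, the NF-kB inhibitor Nfkbia by 1.17 ± 0.22, its nuclear relative Nfkbiz by 1.74 ± 0.34 and the NF-kB subunit Rel by 1.40 ± 0.30, with edgeR adjusted p-values from 0.00419 to 0.0468. The subunit Rel and the inhibitor Nfkbia were thus both among the genes that rose, whereas the subunits Rela, Relb, Nfkb1 and Nfkb2 were not. Tnf itself, at 18.7, 26.8 and 21.4 CPM against 36.7, 47.9 and 34.1, and Tnfaip3, the A20 inhibitor, at 565, 252 and 228 against 1186, 792 and 1135, had no overlap between the groups and did not pass (edgeR adjusted p = 0.3 and 0.0979). Tlr2, the receptor for bacterial lipopeptides, rose from 20.3, 8.6 and 10.9 to 63.6, 75.7 and 137 CPM and its co-receptor Cd14 from 28.1, 3.03 and 30.2 to 411, 403 and 552. These were the 2 of 16 tested Toll-like receptors and adaptors that passed (edgeR adjusted p = 0.00477 and 0.0201). Leaving out single libraries ended the call of Nfkbia, Nfkbiz, Rel and Cd14, at edgeR adjusted p up to 0.107, 0.117, 0.158 and 0.0665, in that order (without IgG control 1, 2 or 3, or anti-PD1 1, 2 or 3, or anti-B7-H3 1 or 2).

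Among CC chemokines, 6 of 13 tested rose, at a median of 2.10. Ccl3 and Ccl4, inflammatory chemokines of macrophages and T cells, went from 21.5, 11.6 and 16.3 to 59.1, 75.1 and 78.4 CPM and from 47.1, 19.8 and 64 to 143, 174 and 140.2 CPM. The macrophage chemokines Ccl6 and Ccl9 rose by 3.29 ± 0.32 and 2.71 ± 0.32. Ccl24, which draws eosinophils through Ccr3, rose from 13.5, 12.7 and 62.6 to 607, 467 and 402 CPM, and Ccl17, which draws Ccr4-bearing T cells, from 15.3, 30.6 and 40.6 to 93.9, 154 and 111. IgG control 3 was the highest control for Ccl24 and still under every anti-PD1 library. Of 19 tested chemokine receptors, 4 rose, namely Ccrl2, Cxcr2, the inflammatory receptor Ccr1 (from 27.4, 56 and 17.6 to 197, 159 and 129 CPM) and the retention receptor Cxcr4 (from 41.7, 57.3 and 35.9 to 104, 85 and 152 CPM). The call was lost without 1 or more of the libraries for Ccl4, Ccl24, Ccl17, Cxcr2, Ccr1 and Cxcr4, with edgeR adjusted p up to 0.0995, 0.0972, 0.0665, 0.0897, 0.0647 and 0.0952, in that order (without IgG control 1, 2 or 3, or anti-PD1 1, 2 or 3, or anti-B7-H3 2 or 3).

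**Figure D1:**
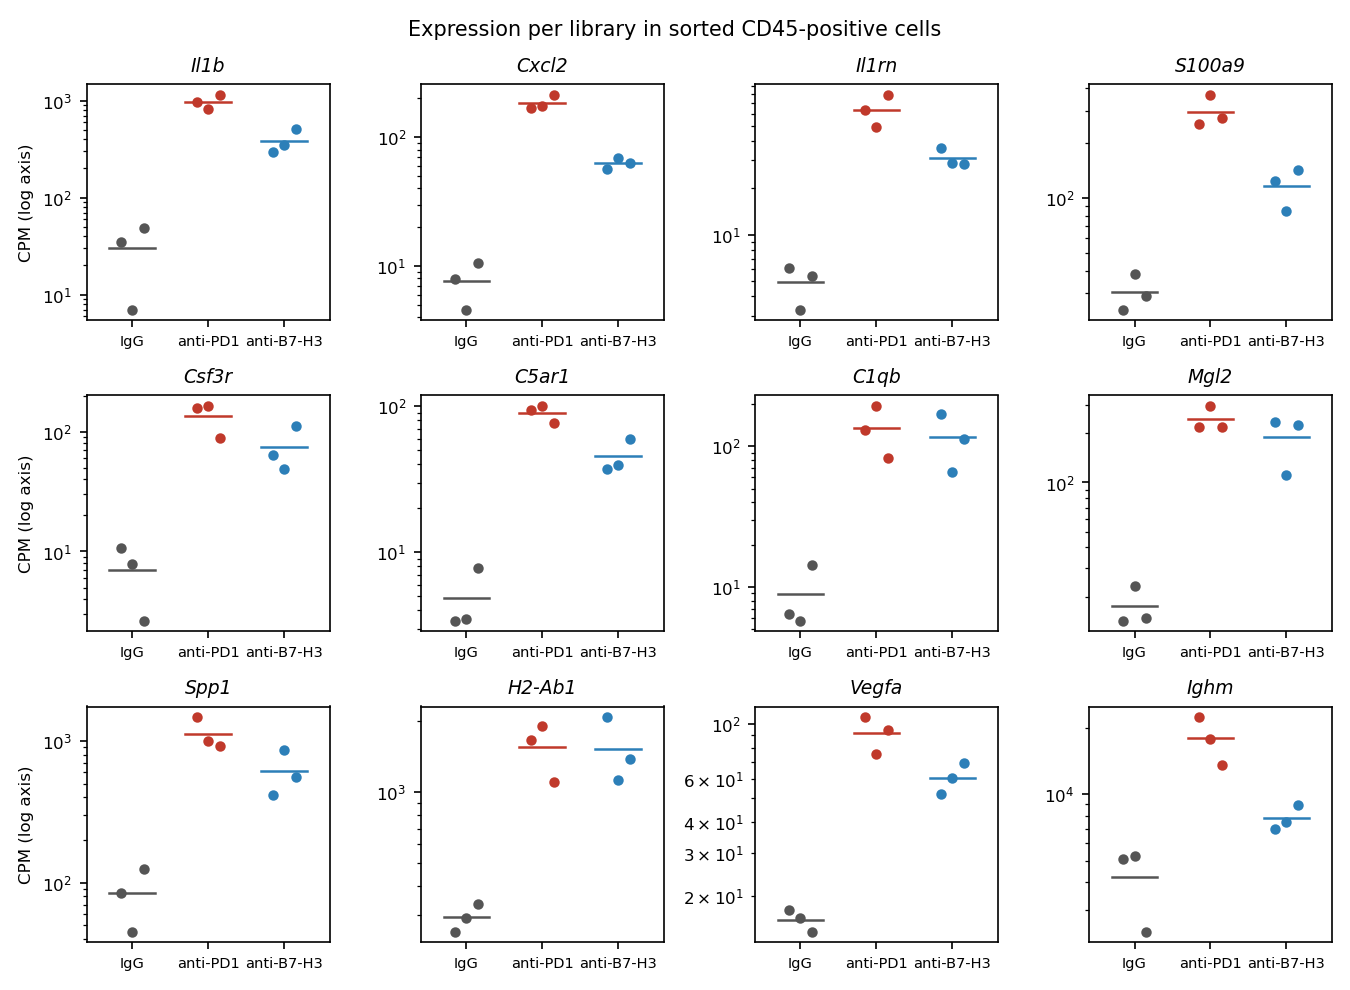
Expression of 12 genes in CPM on log axes, 1 point per library and a bar at the mean of each group of 3, for IgG control, anti-PD1 and anti-B7-H3. In each panel the 3 anti-PD1 points lie above the 3 IgG points.

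Immediate-early genes are switched on within minutes of a stimulus and also respond to tissue dissociation, whose part in the result was not tested. Of 25 tested, 11 rose and 23 had no overlap in that direction, at a median of 1.08. Atf3, a stress-induced factor, went from 15.2, 8.16 and 13.5 to 122, 148 and 137 CPM, a change of 3.46 ± 0.27 (edgeR adjusted p = 0.00037). Fos, a subunit of AP-1, rose from 508, 511 and 704 to 1649, 1300 and 1440 CPM, its relative Fosl2 by 2.56 ± 0.36 and its partner Junb by 1.08 ± 0.19. Fold changes were thus smaller in the abundant Fos and Junb than in Atf3. The factors Klf4, Klf6, Nr4a1 and Egr2 rose by 2.87 ± 0.33, 0.99 ± 0.21, 1.97 ± 0.26 and 1.12 ± 0.24, the feedback brakes Zfp36 and Dusp1 by 1.68 ± 0.21 and 1.28 ± 0.21, and Ier5 by 0.81 ± 0.16. The log2 fold changes of Egr1 and Jun were 0.98 and 0.94, without overlap of the groups, and the genes did not pass (edgeR adjusted p = 0.0737 and 0.0683). In the heat-shock list, 3 of 12 tested genes rose, at a median of 1.17. These were the chaperone Hsp90aa1, from 867, 1297 and 1261 to 1791, 3862 and 2906 CPM, the small heat-shock gene Hspb1, from 10.3, 13.3 and 26.2 to 44.8, 133 and 75, and the co-chaperone Bag3, by 1.88 ± 0.38. The near-identical Hspa1a and Hspa1b together took 0.867%, 0.721% and 1.40% of gene counts with IgG and 1.88%, 2.98% and 2.15% with anti-PD1, but neither gene passed (edgeR adjusted p = 0.0812 for each). The fits that left out 1 library did not all keep the call of Junb, Klf6, Egr2, Dusp1, Ier5, Hsp90aa1, Hspb1 and Bag3, where the edgeR adjusted p reached 0.101, 0.162, 0.193, 0.0647, 0.161, 0.183, 0.0933 and 0.134, in that order, and each of the 9 libraries ended at least 1 of these calls.

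Neutrophil genes formed the list with the most calls per tested member among the cell types. Of 17 tested of 19 members, 10 rose and 15 had every anti-PD1 library above every control, at a median of 2.91. In bulk RNA, more cells of a type and more RNA per cell cannot be told apart. S100a8 and S100a9, the subunits of calprotectin, went from 19.7, 37.6 and 24.8 to 175, 271 and 171 CPM and from 24.4, 38.1 and 29.2 to 253, 364 and 273 CPM. The receptor of G-CSF, Csf3r, rose from 10.8, 7.79 and 2.64 to 157, 163 and 88.2 CPM and the chemokine receptor Cxcr2 from 2.3, 6.56 and 1.92 to 23.9, 21.9 and 29. The lipolysis inhibitor G0s2 went from 3.91, 3.65 and 8.04 to 97.5, 53.7 and 96.2 CPM. All of these were close to 10 CPM or below in the controls except the calprotectin genes. Hdc, which makes histamine, rose from 7.71, 0.619 and 6.58 to 92.1, 110.4 and 92.7 CPM, and the protease inhibitor Slpi from 14.1, 43.1 and 10.7 to 129.7, 90.4 and 103. The lectins Clec4d and Clec4e rose by 3.29 ± 0.70 and 4.24 ± 0.85, and Il1r2 is named above. Of the granule protein genes, Lcn2 was at 1.9, 0 and 1.14 against 13.9, 13.5 and 24.4 CPM and Mmp9 at 26.2, 5.63 and 19.4 against 156, 66.4 and 63.9, without overlap, and neither passed (edgeR adjusted p = 0.0972 and 0.0803), whereas DESeq2 called both. Ngp, another granule protein gene, went the other way, with 279 counts over the IgG libraries and 27 over the anti-PD1 libraries. Its change was -4.16, with overlap and without passing. Camp and Ly6g, both below the filter, went in opposite directions. Camp had 42 counts over the IgG libraries and 0 over the anti-PD1 libraries, and Ly6g had 3 and 62. The summed CPM of the list was 355, 366 and 266 in the IgG libraries and 1778, 1799 and 1548 with anti-PD1. Il1r2, at the CPM given above, made up most of this sum in each IgG library. Leaving out single libraries ended the call of Hdc, Slpi, Clec4d and Clec4e, at edgeR adjusted p up to 0.0798, 0.127, 0.152 and 0.116, in that order (without IgG control 1 or 3, or anti-PD1 1, 2 or 3, or anti-B7-H3 1, 2 or 3). The calls of Cxcr2 and Il1r2 ended in such fits too, as given above.

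Macrophage genes were higher as well. Of 19 tested, 9 rose, 16 had no overlap and all 19 changes were positive, at a median of 3.38 that was 2.83 without IgG control 2. The summed CPM of the list was 326, 135 and 364 with IgG and 2417, 2419 and 1901 with anti-PD1. IgG control 2, the library with the most genes at 0, was the lowest of the controls. The lysosomal glycoprotein Cd68 (chromosome 11, 69664213 to 69666153) went from 30.9, 17.3 and 42.4 to 155, 186 and 144 CPM, a change of 2.42 ± 0.29 (edgeR adjusted p = 0.00237). The lysozyme gene Lyz2 rose from 165, 53.9 and 147 to 846, 765 and 572 CPM and the lipid carrier Apoe from 20.5, 31.4 and 44.3 to 223, 267 and 129. C1qa, C1qb and C1qc, which encode the 3 chains of the complement initiator C1q and lie beside each other in the genome, rose by 3.39 ± 0.50, 3.93 ± 0.50 and 3.70 ± 0.53. The mannose receptor Mrc1 and the co-receptor Cd14 were also among the genes that rose, with Mrc1 going from 4.01, 0.866 and 0.415 to 55.3, 32.5 and 15.7 CPM. Fcgr1 and Msr1 were listed at 0 in IgG control 2 alone of the 6 libraries and lay at 24.5 to 26.2 and 24.1 to 40.5 CPM with anti-PD1 (edgeR adjusted p = 0.186 and 0.154). The call was lost without 1 or more of the libraries for Mrc1, with edgeR adjusted p up to 0.0791 (without IgG control 2, or anti-PD1 1 or 2, or anti-B7-H3 2). The call of Cd14 was lost in such fits too, as given above.

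Other phagocyte genes followed. In the complement list, 5 of 15 tested rose, which were the 3 C1q genes, the properdin gene Cfp (from 19.9, 17.5 and 54.7 to 214, 217 and 158 CPM) and C5ar1, the receptor of the fragment C5a. C5ar1 (chromosome 7, 16246743 to 16259540) was at 3.41, 3.52 and 7.78 CPM with IgG and at 94.1, 99.8 and 76.4 with anti-PD1, or 4.20 ± 0.38 (edgeR adjusted p = 0.000465). Of 20 tested Fc receptor and phagocytosis genes, 5 rose. They were the inhibitory Fc receptor Fcgr2b, from 26.9, 16.7 and 31.3 to 249, 224 and 184 CPM, the activating Fcgr3 and Fcgr4, by 2.61 ± 0.47 and 5.38 ± 1.12, and the inhibitory receptors Cd300lf and Pilra, by 2.29 ± 0.29 and 2.59 ± 0.37. Activating and inhibitory receptors thus rose side by side. In the C-type lectin list, 6 of 14 tested rose at a median of 3.25. Mgl2, a galactose-type lectin of macrophages and dendritic cells, went from 14.2, 23.2 and 14.9 to 219.6, 293 and 218 CPM, Clec7a, the beta-glucan receptor dectin-1, from 13.4, 1.73 and 13.5 to 105, 71.5 and 119, and Clec5a from 0.801, 0 and 0.155 to 18, 10.3 and 16.3. Clec4d, Clec4e and Mrc1, named above, were the other three. Of 15 tested monocyte genes, 5 rose, namely the factor Cebpb (from 124, 91.3 and 134 to 682, 779.6 and 958 CPM), haptoglobin (Hp, by 2.72 ± 0.29), coagulation factor X (F10, by 2.83 ± 0.34), Nr4a1 and Fcgr4. Ly6c2 and Ccr2, of the same list, did not pass. Spn changed by -0.55, with every anti-PD1 library below every control, at an unadjusted edgeR p under 0.05. Of 25 tested lysosomal genes, 5 rose, Cd68 and the cathepsins Ctsh, Ctsl, Ctsc and Ctsz by 1.76 ± 0.26, 2.54 ± 0.38, 1.03 ± 0.19 and 0.98 ± 0.19. The fits that left out 1 library did not all keep the call of Fcgr3, Fcgr4, Clec7a, Clec5a, Ctsc and Ctsz, where the edgeR adjusted p reached 0.0865, 0.14, 0.0897, 0.0725, 0.108 and 0.144, in that order (without IgG control 1 or 3, or anti-PD1 1, 2 or 3, or anti-B7-H3 1, 2 or 3).

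Genes used to mark either of the opposite macrophage states rose. Of 15 tested genes of the alternatively activated (M2) kind, 6 rose at a median of 3.20, and of 16 of the classically activated (M1) kind, 4 rose at a median of 1.51 that was 2.90 without IgG control 3. In the former, Arg1, which breaks down arginine, went from 93.4, 32 and 191 to 1334, 1070 and 886 CPM, beside Mrc1, Mgl2, Ccl17, Ccl24 and Pdcd1lg2. In the latter, Irf5 rose from 56.8, 70.3 and 61 to 159.7, 162 and 118 CPM and Socs3 from 112, 88.8 and 85.9 to 221, 188 and 247, beside Il1b and Cd80. Nos2, which also uses arginine, was listed at 0 in 2 IgG libraries and lay at 10.2, 12.8 and 13.2 CPM with anti-PD1 (edgeR adjusted p = 0.196). Of 16 tested genes of lipid-associated macrophages, 6 rose. Spp1, encoding osteopontin, went from 84, 45 and 125 to 1470, 992 and 919 CPM, a change of 3.73 ± 0.41 (edgeR adjusted p = 0.00141), and the elastase Mmp12 from 30.4, 47 and 13.4 to 274, 260.1 and 202. Plin2, which coats lipid droplets, rose by 1.53 ± 0.20, Lpl, a lipase, by 2.06 ± 0.34 and the tetraspanin Cd9 by 1.52 ± 0.30, with Apoe as the sixth. Leaving out single libraries ended the call of Arg1, Lpl and Cd9, at edgeR adjusted p up to 0.0572, 0.0604 and 0.101, in that order (without IgG control 1, or anti-PD1 1, 2 or 3).

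Some genes of secreted proteases, growth factors and lipid mediators rose. Of 12 tested matrix metalloproteinases and inhibitors, 3 rose. Beside Mmp12 these were the collagenase Mmp13, at 0.15, 0 and 0 CPM with IgG and 9.3, 14.2 and 7.8 with anti-PD1, and Mmp19, at 0.25, 0 and 0 against 16.7, 12.7 and 3.88. Mmp13 had 3 counts over the IgG group, and its ratio of pooled CPM was 194 with a 95% counting interval from 66.1 to 942. Vegfa, the vascular growth factor, went from 17.5, 16.3 and 14.4 to 107, 75.3 and 94.5 CPM, or 2.52 ± 0.23 (edgeR adjusted p = 0.000465). Tgfbi, a matrix protein induced by TGF-beta, rose by 3.07 ± 0.42, and with Vegfa and Socs3 made up the 3 of 16 tested genes of the TGF-beta and interleukin 10 list that rose. Tgfb1 itself lay at 126, 118 and 156 CPM against 222, 169.7 and 214 and did not pass (edgeR adjusted p = 0.262). Of 14 tested genes of eicosanoid synthesis, 3 rose, the lipoprotein-associated phospholipase Pla2g7 by 2.84 ± 0.33, the cyclooxygenase Ptgs1 by 1.72 ± 0.33 and the leukotriene cofactor Alox5ap by 1.34 ± 0.26. The inducible cyclooxygenase Ptgs2 was listed at 0 in IgG control 2 and did not pass, at 5.96, 0 and 4.3 CPM against 167, 133 and 140.4 (edgeR adjusted p = 0.0683). The call was lost without 1 or more of the libraries for Mmp19, Ptgs1 and Alox5ap, with edgeR adjusted p up to 0.112, 0.116 and 0.133, in that order (without IgG control 1, 2 or 3, or anti-PD1 1, 2 or 3, or anti-B7-H3 2 or 3).

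Genes of MHC class II, which shows peptides to CD4 T cells, were higher. Of 12 tested genes, 7 rose and 9 had no overlap, at a median of 1.89. H2-Ab1 (chromosome 17, 34257689 to 34269419) went from 255, 291 and 335 to 1664, 1912 and 1106 CPM, H2-Aa from 98, 112 and 162 to 722, 971 and 463, H2-Eb1 from 116, 210.1 and 148 to 679, 959 and 550 and the invariant chain Cd74 from 582, 1268 and 818 to 3528, 4209 and 2969. The peptide loaders H2-DMb1, H2-DMb2 and H2-DMa rose by 2.15 ± 0.21, 1.88 ± 0.35 and 0.98 ± 0.20, although reads of H2-DMb1 and H2-DMb2 can be split between these near copies. Ciita, the class II transactivator, lay at 12.4, 3.22 and 15.8 CPM against 48.3, 38.7 and 29.2 and did not pass (edgeR adjusted p = 0.107). MHC class I was another case, with 0 of 16 tested genes past the test and a median of 0.03. None was at an unadjusted p under 0.05 by edgeR and none was called by DESeq2, and with single libraries left out the median ran from -0.08 to 0.20. Among dendritic cell genes, 4 of 12 tested of type 2 rose (Mgl2, Klf4, Ccl17 and Irf4, the last by 2.02 ± 0.40). Those of type 1 had 0 of 10 past edgeR's test (5 at an unadjusted p under 0.05, and 2 by DESeq2), 5 without overlap and a median of 1.12 that was 0.36 without anti-PD1 2. Migratory dendritic cell genes had 0 of 13 past edgeR's test (7 at an unadjusted p under 0.05, and 5 by DESeq2), 8 without overlap and a median of 1.14, or 0.70 without anti-PD1 1. The fits that left out 1 library did not all keep the call of Cd74, H2-DMb2, H2-DMa and Irf4, where the edgeR adjusted p reached 0.0534, 0.0979, 0.165 and 0.116, in that order (without IgG control 1 or 2, or anti-PD1 1, 2 or 3, or anti-B7-H3 2 or 3).

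**Figure D2:**
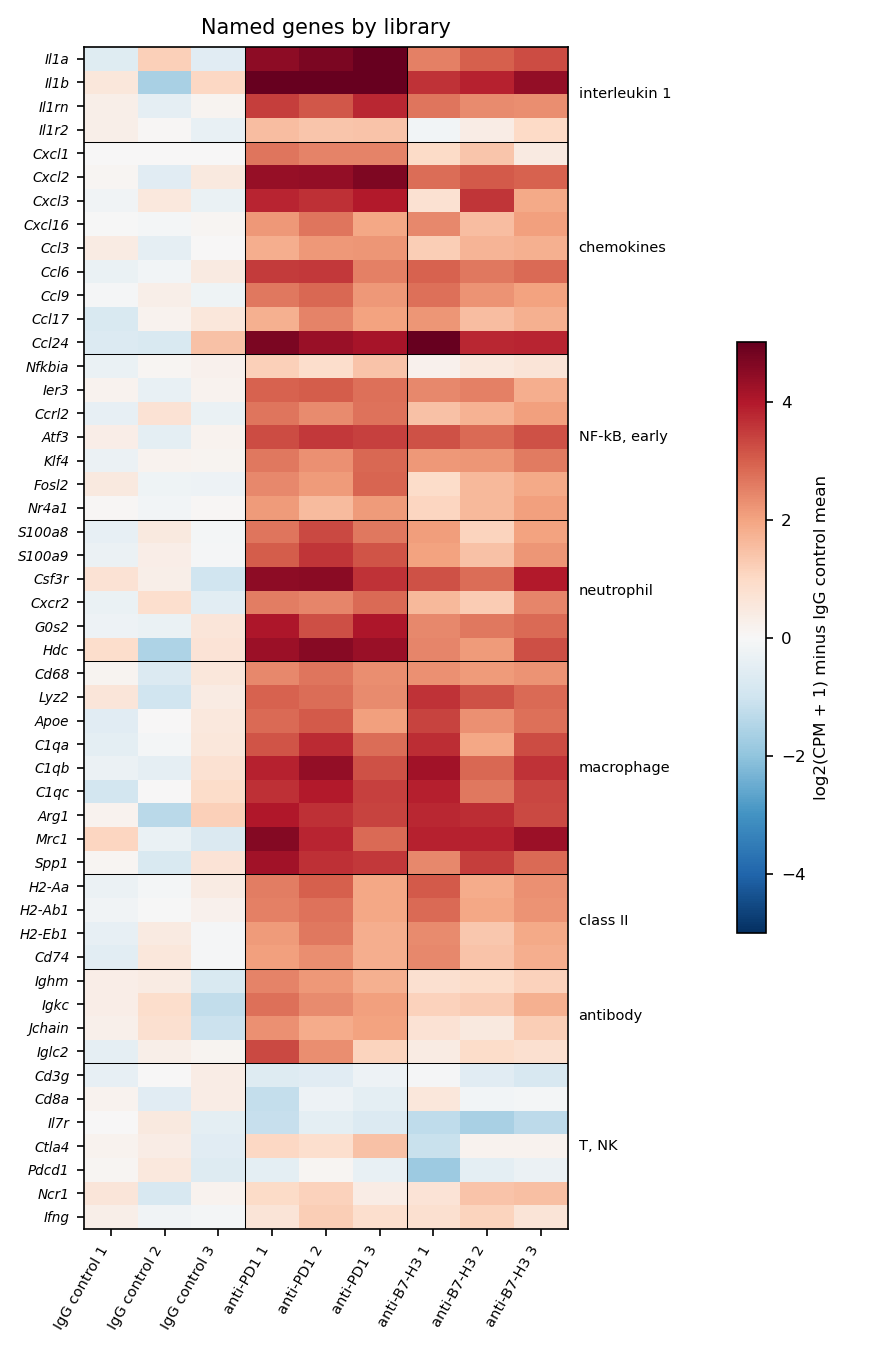
Each row is a gene and each column a library, and the colour is log2(CPM + 1) minus the mean of the 3 IgG control libraries, red for higher and blue for lower. The inflammatory, neutrophil, macrophage, class II and antibody rows are red in the 3 anti-PD1 columns, and the T and NK cell rows at the bottom are pale or of mixed colour.

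Antibody genes rose too. Ighm (chromosome 12, 113418558 to 113422730), the constant region of the IgM heavy chain, went from 5077, 5254 and 2379 CPM with IgG to 22420, 17900 and 13670 with anti-PD1, a change of 2.09 ± 0.33 (edgeR adjusted p = 0.00813). The kappa constant gene Igkc rose from 2244, 3284 and 745 to 12020, 9117 and 7284 CPM and the lambda constant gene Iglc2 from 99.7, 168 and 149.8 to 1365, 677 and 291, where near-identical lambda genes can share reads. These were the 3 of 10 tested constant genes that passed. Ighg2b was listed at 0 in IgG control 3 and anti-PD1 3 and lay anywhere from 0 to 232 CPM over the anti-PD1 libraries (edgeR adjusted p = 0.693). Immunoglobulin genes together took 1.17%, 1.43% and 0.420% of gene counts with IgG and 4.98%, 3.89% and 3.05% with anti-PD1. Among variable segments, 1 of 62 tested kappa and 1 of 3 lambda segments rose, and 12 kappa and 3 lambda segments lay above the controls without overlap. Of 64 heavy segments, 5 lay above and 3 below without overlap, beside the 9.99% and 6.52% of all tested genes, and 0 passed the test. The change was positive in 52 of the 64 heavy segments, at a median of 2.72, and in 50 of the 62 kappa segments, at 2.97. The kappa segment Igkv12-89 was read at 0.10, 0 and 0 CPM against 29.7, 113 and 103, with 2 counts over the IgG group and a ratio of pooled CPM of 2215 (95% counting interval 613 to 18300). Iglv3 went from 0.501, 0.804 and 0.778 to 19.1, 9.79 and 55.8 CPM. Both segments may share reads with relatives, and the anti-B7-H3 libraries held Igkv12-89 as well, at 14.8, 107 and 97.8 CPM. Of 13 tested plasma cell genes, 5 rose and all 13 changes were positive, at a median of 1.75. The joining chain Jchain went from 245, 357 and 96.5 to 1005, 739 and 833 CPM and the secretory factor Xbp1 from 43.3, 41.1 and 19.6 to 93.9, 74.6 and 96.7, with Irf4, Creld2 and Fkbp11 at 2.02 ± 0.40, 1.33 ± 0.21 and 3.18 ± 0.70. B cell genes had 0 of 19 past edgeR's test (4 higher at an unadjusted p under 0.05, and 1 by DESeq2). Of these genes, 2 lay above the controls without overlap, beside 9.99% of all tested genes. The list's median was 0.88, or 0.55 without anti-PD1 2. Of 17 tested genes of the unfolded protein response, which secretory cells use, 3 rose, namely Creld2, Xbp1 and Sdf2l1, the last by 0.86 ± 0.18. Leaving out single libraries ended the call of Igkc, Iglc2, Iglv3, Jchain, Xbp1, Fkbp11 and Sdf2l1, at edgeR adjusted p up to 0.148, 0.124, 0.062, 0.162, 0.169, 0.182 and 0.191, in that order, and each of the 9 libraries ended at least 1 of these calls.

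Few genes of T and NK cells, among which are the cells that carry PD1, passed the test. Of 18 tested pan-T cell genes, 0 passed by edgeR or by DESeq2 and 3 were lower at an unadjusted edgeR p under 0.05. Of the 18, 4 lay below the controls without overlap, beside 6.52% of all tested genes. All 18 changes were negative and the median was -0.34, or -0.20 without IgG control 3. Lck, the T cell receptor kinase, lay at 1301, 1492 and 1390 CPM with IgG and 973, 878 and 1051 with anti-PD1 (edgeR adjusted p = 0.31). T cell receptor genes together took 0.426%, 0.533% and 0.490% of gene counts with IgG and 0.326%, 0.324% and 0.406% with anti-PD1, which did not overlap. These are shares of a library's counts, so less of one class and more of another cannot be told apart. In the list of CD8 and cytotoxic genes, 0 of 20 passed by edgeR (2 higher at an unadjusted p under 0.05, and Ifng by DESeq2) at a median of 0.41, which was 0.17 without IgG control 2 and without anti-PD1 1. Ifng, the main effector cytokine, was at 46, 33.1 and 35.2 CPM against 59.4, 89.7 and 68.4, without overlap (edgeR adjusted p = 0.101). Gzmb, granzyme B, overlapped at 511, 234 and 419 against 912, 441 and 823. Of 14 regulatory T cell genes 0 passed by edgeR (3 higher and 2 lower at an unadjusted p under 0.05, and 2 by DESeq2) at a median of 0.14, and Ctla4 lay at 264, 303 and 154 against 469.5, 414 and 647 CPM (edgeR adjusted p = 0.244). NK cell genes had 0 of 17 past the test by edgeR, at an unadjusted edgeR p under 0.05 and by DESeq2, with a median change of 0.49 that was 0.15 without IgG control 2, 0.32 without anti-PD1 2 and 0.84 without IgG control 1. Of 15 genes of gamma-delta T and innate lymphoid cells, 1 rose, the epidermal growth factor receptor ligand Areg, from 36.6, 20 and 34.4 to 128, 77.3 and 211 CPM. Irf4, named above, was the 1 of 16 exhaustion and memory factors that rose. Leaving out 1 library turned the sign of the medians for regulatory T cells (-0.03 without anti-PD1 3, but 0.53 without IgG control 2) and for exhaustion and memory factors (-0.10 with all libraries and 0.17 without IgG control 2). The call was lost without 1 or more of the libraries for Areg, with edgeR adjusted p up to 0.0739 (without IgG control 2 or 3, or anti-PD1 1 or 3).

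No gene of the interferon lists passed edgeR's test. Of 28 tested type I interferon genes, 0 passed by edgeR, with 4 lower and 1 higher at an unadjusted p under 0.05, and DESeq2 called 4 lower, namely Ifit1, Ifit2, Ifit3 and Ifit3b. Of the 28, 5 lay below the controls without overlap and 2 above, beside 6.52% and 9.99% of all tested genes. The list's median change was -0.17, and it was -0.06, -0.09 and -0.02 without IgG control 1, 2 and 3. The summed CPM of the list was 1915, 1688 and 1878 with IgG and 1404, 1575 and 1656 with anti-PD1, lower without overlap. Ifit3 lay at 85.5, 56.7 and 94.5 CPM against 31.6, 42.6 and 38.9 and Irgm1 at 105, 129.9 and 107 against 65.7, 74.4 and 63.8, and neither passed (edgeR adjusted p = 0.0619 and 0.0678), and Ifit3 may share reads with its near copy Ifit3b. Of 20 tested interferon-gamma response genes, 0 passed by edgeR (3 higher and 2 lower at an unadjusted p under 0.05, and 3 higher and 1 lower by DESeq2), at a median that ran from -0.20 to 0.11 with single libraries left out. Cell cycle genes had 0 of 24 past the test by edgeR and by DESeq2, 1 lower at an unadjusted edgeR p under 0.05 and a median of -0.33, or -0.06 without IgG control 2, -0.21 without anti-PD1 3, -0.51 without IgG control 3 and -0.59 without anti-PD1 1.

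A few genes of the response to low oxygen and of glycolysis rose. Of 21 tested, 4 rose and 13 had no overlap, at a median of 0.41. Beside Vegfa, these were the oxygen sensor Egln3, from 13.3, 17.5 and 12.7 to 51.1, 37.8 and 44.9 CPM, the mitophagy receptor Bnip3, from 54.8, 53.2 and 39.4 to 113, 90 and 139.7, and the glucose transporter Slc2a1, from 122, 119 and 106 to 236, 228 and 192. The glycolytic enzyme Gapdh did not pass, at 3180, 3244 and 4274 against 5508, 4840 and 4974 CPM (edgeR adjusted p = 0.403). The fits that left out 1 library did not all keep the call of Egln3, Bnip3 and Slc2a1, where the edgeR adjusted p reached 0.0725, 0.155 and 0.172, in that order (without IgG control 1, 2 or 3, or anti-PD1 1, 2 or 3, or anti-B7-H3 2 or 3).

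The largest rises included several genes close to absent from the controls. Nkd2, an inhibitor of Wnt signalling, had no count in the IgG libraries and lay at 4.63, 4.14 and 7.3 CPM with anti-PD1, at least 97.3-fold higher against the floor over the group. Col4a2, a basement membrane collagen, had 1 count in the IgG group and 1.1, 13.3 and 7.8 CPM with anti-PD1, a ratio of pooled CPM of 400 (95% counting interval 71.5 to 15810). Gdf15, a stress cytokine, went from 0, 0 and 0.311 to 6.93, 23.9 and 4.51 CPM, Serpinh1, a collagen chaperone, from 1, 0 and 0.104 to 22.3, 19 and 10.4, and coagulation factor VII (F7) from 0.551, 0.124 and 0.155 to 15.6, 14.3 and 4.51. Acod1, which makes itaconate in activated macrophages, rose from 3.41, 0 and 2.75 to 105, 102 and 86.8 CPM and Cd300ld from 0.952, 0 and 0 to 30.7, 21.1 and 15.9. Beside Igkv12-89, Mmp13, Mmp19, Clec5a, Fcgr4, Iglv3, Il1a and Il1b, these made up the 15 largest rises among genes with a mean of at least 5 CPM with anti-PD1. Clone names, such as Gm followed by digits, were left out of this ranking. The anti-PD1 libraries were also the deeper ones, and the part of depth in these rises was not tested. Leaving out single libraries ended the call of Nkd2, Col4a2, Gdf15, Serpinh1, Acod1 and Cd300ld, at edgeR adjusted p up to 0.07, 0.0979, 0.149, 0.133, 0.133 and 0.118, in that order (without IgG control 1 or 3, or anti-PD1 1, 2 or 3, or anti-B7-H3 1, 2 or 3).

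By edgeR 2 genes fell, and by DESeq2 59. Rpa1, the large subunit of the single-strand DNA binding complex, went from 176, 197 and 156 to 108, 82.6 and 103 CPM, a change of -0.85 ± 0.18 (edgeR adjusted p = 0.0389). Zfp109, a zinc finger gene under 5 CPM and named here after its values were seen, went from 3.71, 8.47 and 1.45 CPM to 0, 0.0369 and 0, with 1 count over the anti-PD1 group and an IgG to anti-PD1 ratio of pooled CPM of 346 (95% counting interval 61.4 to 13710). Neither call held when single libraries were left out, with adjusted p up to 0.21 and 0.133. The lower genes with the next smallest p were taken among those of at least 5 CPM without overlap, leaving out clone names. They were Ubn1, Ifit3, Suox, Mcm3ap, Dido1, Irgm1, Tfam, Adnp and Fmnl3. They changed by between -0.75 (Irgm1) and -1.66 (Adnp), and missed the threshold at edgeR adjusted p from 0.0617 to 0.0756.

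**Figure D3:**
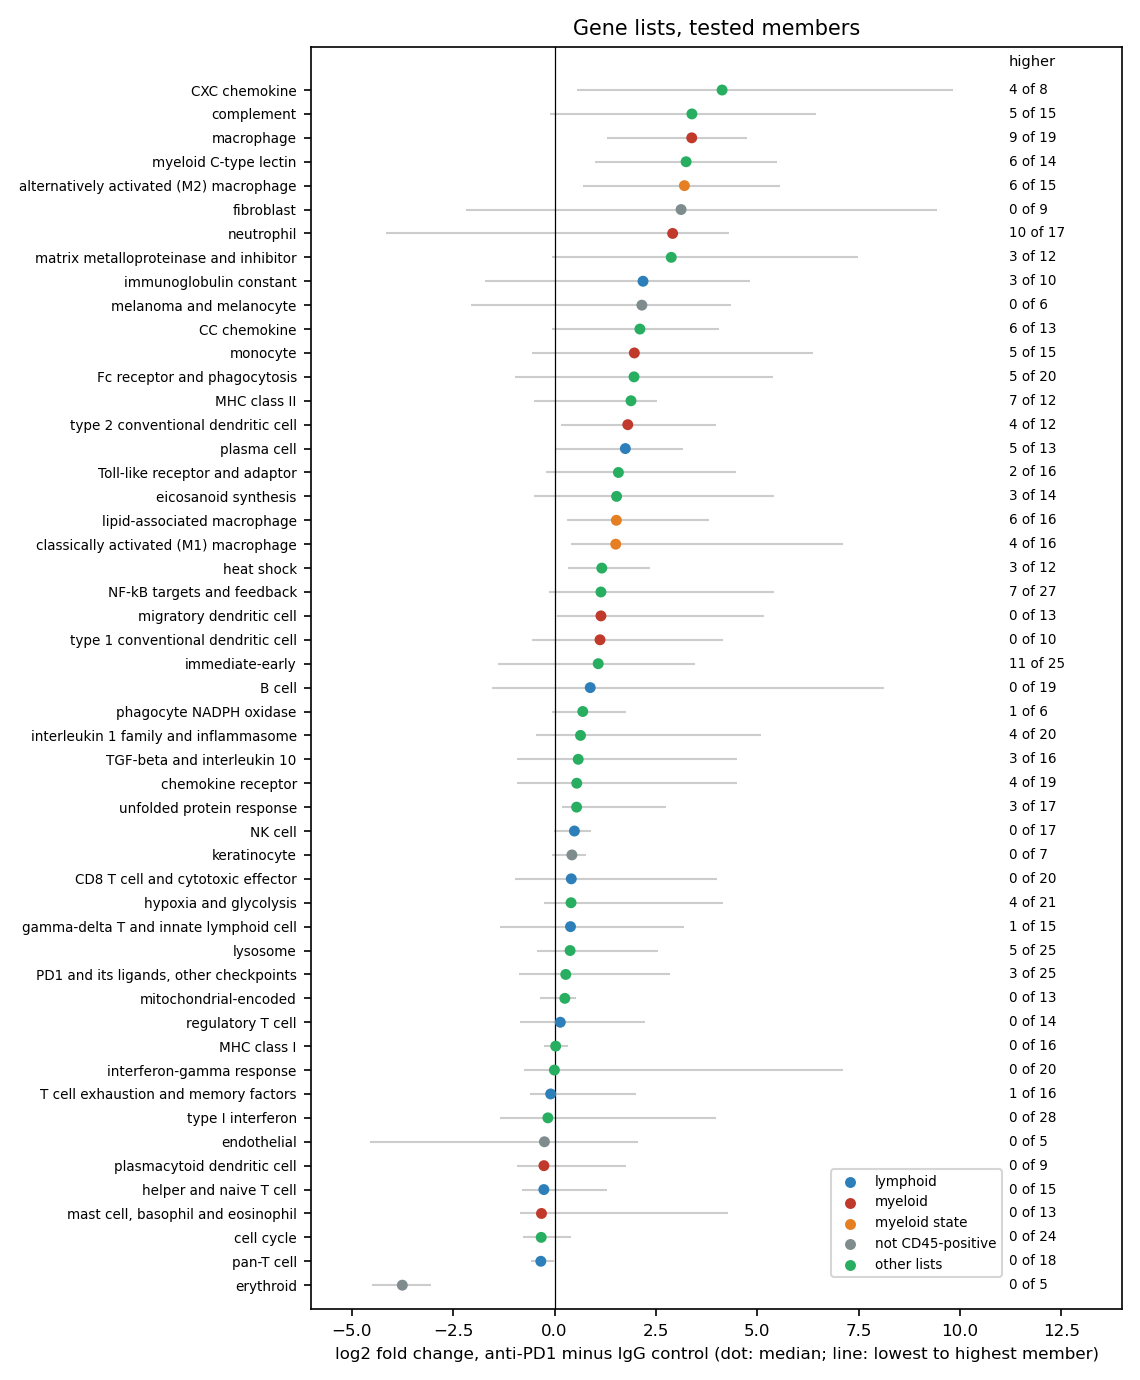
Each row is a gene list, with a dot at the median log2 fold change of its tested members, anti-PD1 minus IgG control, a line from the lowest to the highest member and, at the right, how many of the tested members rose. The neutrophil list has 10 of 17 and the macrophage list 9 of 19, whereas the pan-T, NK, B cell and interferon lists have 0.

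Markers of cells that the sort should remove were read in both groups. The sums of 3 of these lists are split at 1 gene that leukocytes also express, a split made after the values were seen. For fibroblasts, 0 of 9 tested of 14 markers passed by edgeR (3 at an unadjusted p under 0.05, and 3 by DESeq2), at a median of 3.12. Col5a1, Fbln1, Col1a1 and Col6a1 had 0, 5, 10 and 10 counts over the IgG libraries, so this median is partly set by the filter. Thy1, which T cells also carry, took most of the fibroblast sum, at 52.3, 81.8 and 74.6 CPM with IgG and 50.6, 57.6 and 67.3 with anti-PD1. The other 13 fibroblast markers together were at 4.01, 0.928 and 1.87 CPM with IgG and 33.9, 43.6 and 29.8 with anti-PD1, higher without overlap. The members differed between anti-PD1 libraries. In anti-PD1 3, Col1a1, Col5a1, Col6a1, Postn and Fbln1 were at 0, and Col3a1, Col1a2 and Lum at 17.4, 8.06 and 4.13 CPM. Dcn was at 0 in all 6 libraries, and Pdgfra and Fap in the 3 anti-PD1 libraries. Col3a1 was at 0.902, 0 and 0 CPM against 8.27, 20 and 17.4 (edgeR adjusted p = 0.0565). The summed fibroblast markers were higher with anti-PD1, as were Col4a2, Serpinh1 and Mmp13, and the part of fibroblasts in those rises was not tested. Of 6 tested melanoma markers 0 passed by edgeR (1 at an unadjusted p under 0.05, S100b, which DESeq2 called higher), at a median of 2.15. That median ran from 0.06 to 2.82 over the alternatives, and Mitf and S100b had 10 and 6 counts over the IgG libraries. Without Kit, which mast cells also carry, the other 11 melanoma markers together were at 4.61, 13.9 and 7.57 CPM with IgG and 19.6, 18.4 and 12.9 with anti-PD1, with an overlap only between IgG control 2 and anti-PD1 3. Gpnmb, also in the lipid-associated macrophage list, took 2.3, 0.247 and 4.82 CPM of these sums with IgG. With anti-PD1 it took 3.29, 4.73 and 11 CPM. Pmel took 11.4 CPM of the sum in IgG control 2. S100b itself was at 0.30, 0 and 0 CPM against 2.23, 2.85 and 1.46, with Dct and Slc45a2 at 0 in all 6 libraries and Mlana in the anti-PD1 libraries. Of 5 tested endothelial markers 0 passed by edgeR (1 at an unadjusted p under 0.05, Flt1, which DESeq2 called higher), at a median of -0.25. Without Pecam1, which leukocytes also carry, the other 11 were at 8.21, 5.07 and 7.57 CPM with IgG and 22.2, 13.8 and 15.4 with anti-PD1, without overlap, and Flt1 made up most of both. Keratinocyte sums overlapped, at 76.6 to 121 against 92.4 to 144 CPM. Erythroid markers summed to 70.4, 13.4 and 435 CPM with IgG and 2.27, 30.8 and 3.76 with anti-PD1, which overlapped. All 5 tested erythroid markers were lower, at a median of -3.76, with 0 past edgeR's test, 2 at an unadjusted p under 0.05 and 1 called lower by DESeq2. Mitochondrial genes took 2.34%, 1.64% and 3.89% of gene counts against 3.27%, 3.88% and 2.35%, which overlapped.

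**Figure D4:**
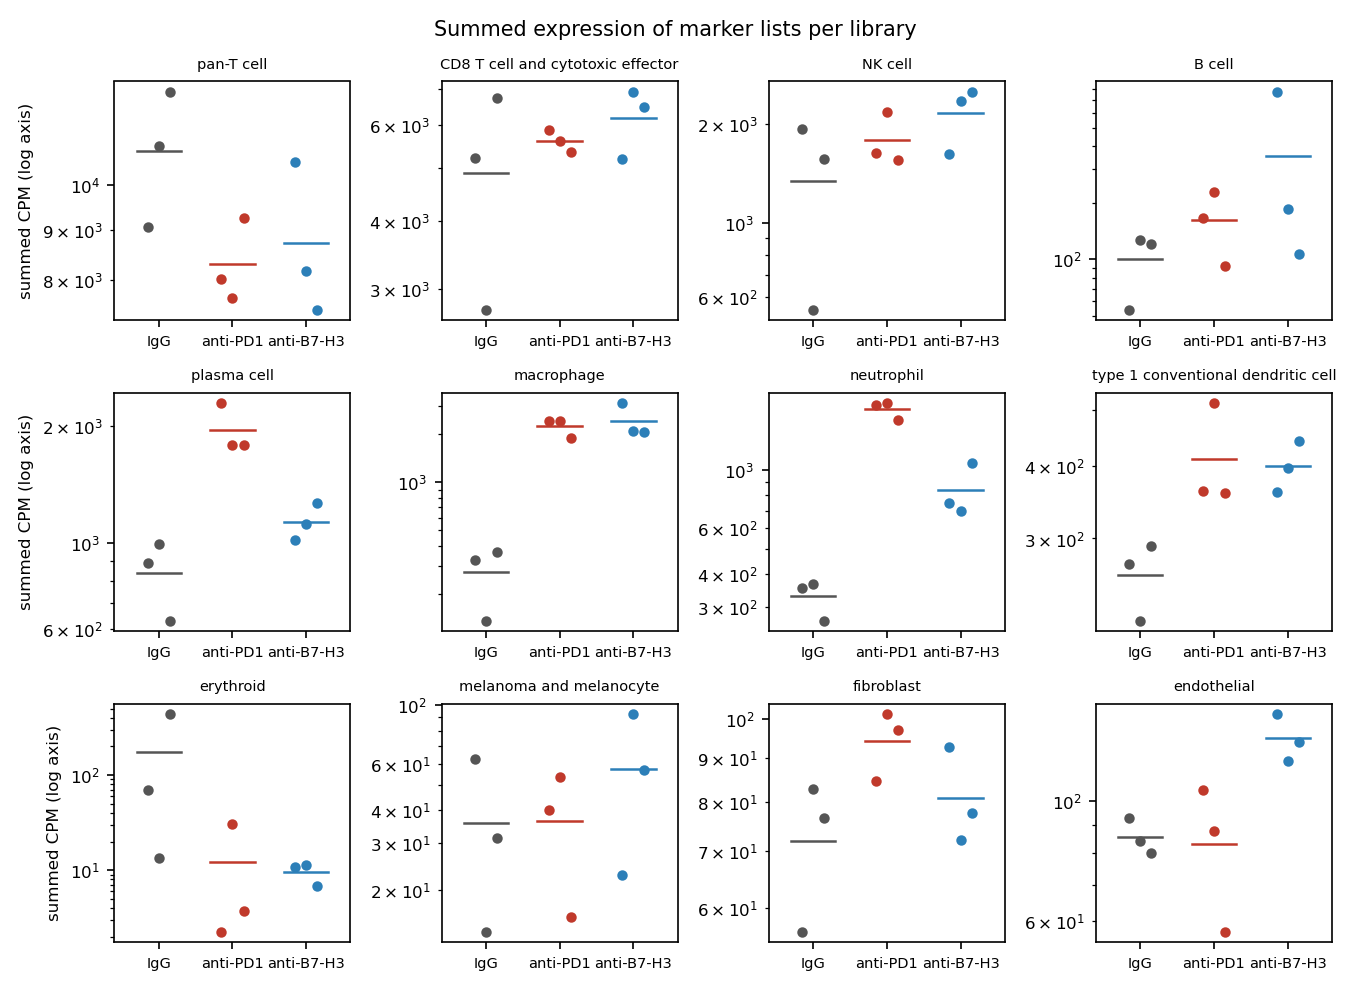
Summed CPM of the members of 12 marker lists on log axes, 1 point per library and a bar at the mean of each group of 3. The macrophage, neutrophil and plasma cell sums are higher in all anti-PD1 libraries than in the controls, and the pan-T, NK and B cell sums overlap.

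The antibody against B7-H3 served as the nearest comparison. Anti-PD1 set directly against anti-B7-H3 gave 0 of 13178 genes past the test (0%), with 425 (3.23%) at an unadjusted p under 0.05 by edgeR, and DESeq2 called 10 higher and 5 lower. Of the 112 genes called with anti-B7-H3 against IgG, 106 were among the 227 that rose with anti-PD1. Both antibodies share the IgG controls, so this overlap is not independent and their changes are only set side by side. Cxcl2, at 169.6, 175 and 212 CPM with anti-PD1 and 57, 68.8 and 63.4 with anti-B7-H3, differed by 1.55 ± 0.28, and S100a9, at 253, 364 and 273 against 123, 84.3 and 142, by 1.35 ± 0.25, without overlap between the antibodies. Ighm differed by 1.21 ± 0.32, at 22420, 17900 and 13670 CPM against 6933, 7456 and 8973, and Il1b lay at 976, 823 and 1138 against 298, 350 and 509. None of these 4 differences passed edgeR's test over all genes (adjusted p = 1 for each). Against IgG, H2-Ab1 changed by 2.41 with anti-PD1 and 2.38 with anti-B7-H3, and Fcgr2b by 3.13 and 3.13. The median of the macrophage list was 3.38 with anti-PD1 and 3.37 with anti-B7-H3, and that of the neutrophil list 2.91 and 1.99.

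Many of the calls rested on all libraries being present. Leaving out anti-PD1 1 or 2 lowered the number of higher genes from 227 to 113 or 116, and 93 of the 229 calls were made in each of the 9 fits that left out 1 library. Of the 138 calls among the genes named here and in the closing observations, the number lost was 42, 19 and 35 without IgG control 1, 2 and 3 and 57, 55 and 42 without anti-PD1 1, 2 and 3. Leaving out anti-B7-H3 1, 2 or 3, which enter the filter and the estimate of the spread, ended 19, 37 and 29. Of the 229 called genes, 0 changed direction in an alternative that tested them. Without IgG control 2 and anti-PD1 3 together, the libraries with the most genes at 0, 232 genes were higher and 2 lower, of which 163 and 0 were among the 227 and 2 called with all libraries, and 29 of the 138 named calls were lost.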

How the data were processed

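RNA from sorted CD45-positive tumour cells was sequenced in 9 libraries. Per the labels' protocols, cDNA came from a SMART-Seq v4 kit and libraries from Nextera XT, which do not mark strand. The deposited files gave, per the file headers, an estimated count and a TPM value for each of 58083 transcripts. The submitters' processing notes name FastQC 0.11.8 and GRCm38, and the quantifier was not given in the sources used here. Estimated counts were summed per gene over the 57409 transcripts matched to GENCODE, which left at most 0.547% of counts unmatched, and rounded, giving 22136 genes. The deposited TPM values were used only for a length-scaled alternative.

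Genes were filtered with filterByExpr, scaled by TMM and fitted with edgeR 4.0.16 (R 4.3.3) over all 9 libraries with robust quasi-likelihood dispersions. All 13178 tested genes entered the Benjamini-Hochberg adjustment at a threshold of 0.05. Alternatives were DESeq2 1.42.0, other scalings and filters, and each library left out. Library totals ran from 14487012 to 31533106. Reads carry no molecular identifiers, so floors of 3 counts and exact 95% intervals cover counting error only. The analysis was tested on simulated data.

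The genes and lists were chosen with earlier results of these data known. Named genes were the 15 largest rises of at least 5 CPM without overlap, the lower genes of smallest p under the same conditions, list members past the test with up to 4 others of smallest p, the targets and Ptprc. Clone names were left out of the rises and the lower genes. A few genes under this rule are not reported here. Promoter sequence came from RefSeq on GRCm38.p6.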

Additional observations from a re-analysis of the deposited data

How the results depend on the processing

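The number of genes higher with anti-PD1 was 227. It stayed within 1.5 times of that under DESeq2 size factors, upper-quartile factors, no filter, a filter of 5 CPM, length-scaled counts, non-robust dispersions and without the 20 most abundant genes, at 217 to 263. It was 136 with only the 6 libraries compared, 126 with a replicate block, 593 by DESeq2, and 113 to 259 with single libraries left out. The number of lower genes, 2, was 4 with no filter, 1 at 5 CPM, 0 with 6 libraries, 1 with the replicate block, 59 by DESeq2 and 0 to 12 with single libraries left out. The replicate block tests a pairing that rests on shared numbers alone, since the deviations of same-numbered IgG and anti-PD1 libraries correlated at 0.16, -0.07 and -0.03. For anti-PD1 against anti-B7-H3, the 0 higher and 0 lower genes became 10 and 5 by DESeq2, and 0 to 1 higher with single libraries left out. Among genes named, Cd276 was at -0.008 with length-scaled counts. Pdcd1 was at 0.052 without IgG control 2 and anti-PD1 3 together and ran from -0.577 to 0.008 with single libraries left out, and Ptprc from -0.315 to 0.048. Where the cause is not the number of samples or genes fitted, it was not tested. Depth limits genes near the floor of 3 counts.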

Other observations

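Several genes that rose with anti-PD1 belong to none of the lists above, and those named here were chosen after their values were seen. Secreted factors were among them. Osm, the cytokine oncostatin M, went from 36.7, 27.2 and 48.4 CPM with IgG to 259.6, 203 and 269.9 with anti-PD1, a change of 2.70 ± 0.28 (edgeR adjusted p = 0.000865). Inhba, which encodes a subunit of activin A, rose from 3.61, 5.01 and 10.2 to 44.2, 70.6 and 70.8 CPM, Hbegf, a ligand of the epidermal growth factor receptor, from 3.16, 9.21 and 9.33 to 41.2, 38.1 and 31.7, and Tnfsf9, the ligand of 4-1BB, from 14.8, 18.9 and 19.2 to 72.5, 56.7 and 87.5. No library of either group overlapped the other for these 4 genes. Hcar2, a receptor for niacin and ketone bodies, had one of the wider gaps, at 6.11, 10.9 and 1.81 CPM against 129, 160.1 and 153 (edgeR adjusted p = 0.00477). The chains of the GM-CSF receptor, Csf2ra and Csf2rb, rose by 2.48 ± 0.43 and 1.95 ± 0.32. The call was lost without 1 or more of the libraries for Hbegf and Csf2ra, with edgeR adjusted p up to 0.106 and 0.0636, in that order (without IgG control 3, or anti-PD1 1, 2 or 3).

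The genes that follow were chosen in the same way. Spi1, which encodes the myeloid transcription factor PU.1, went from 24.4, 29.6 and 28.6 to 135, 136 and 75.9 CPM, and the myeloid surface genes Pirb and Ms4a6d rose by 2.54 ± 0.26 and 2.62 ± 0.24. Cdkn1a, the cell cycle inhibitor p21, rose from 32.3, 29.8 and 61.6 to 282, 220.4 and 256 CPM and the polo-like kinase Plk2 from 12.8, 12 and 5.96 to 98.2, 113 and 90.4. The endocytic adaptor Dab2 rose by 3.41 ± 0.39, the factor Nfil3 by 1.84 ± 0.21, the clock gene Per1 by 1.92 ± 0.30 and the lactate exporter Slc16a3 by 1.62 ± 0.20. Mt1, a metallothionein that binds zinc and copper, rose from 41.7, 32.4 and 55.7 to 134, 167 and 141 CPM and lay at 65.4, 83 and 52.8 with anti-B7-H3, a difference between the antibodies of 1.13 ± 0.25 that did not pass edgeR's test (adjusted p = 1).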
